A study of Rattus norvegicus with 6 samples.

Results

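The interferon-stimulated genes described here are 41 named antiviral and immune genes of the rat, of which 39 had a row under their own symbol in a table of 43035 features. They comprised 28 antiviral effectors, 5 GTPases, 4 sensors of foreign nucleic acid and 4 STAT or IRF transcription factors. Xaf1 and Samd9l had no row. Of the 39 genes with a row, 26 had enough counts to be tested and 13 did not. The genes were chosen by name as known interferon targets, without a threshold on a measured value. The choice was made with earlier results of these data known, so shares of the list called are a description of it.

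RNA-seq was performed on cardiomyocytes from the hearts of Sprague-Dawley rats at postnatal day 1, grown in primary culture in medium with fetal bovine serum. Both groups were transfected, one with a scrambled control siRNA (si-NC, 3 libraries) and the other with an siRNA directed at the kinase DYRK1A (si-DYRK1A, 3 libraries), and all were collected 48 h later. The labels call the 3 libraries of a group biological replicates and do not say whether they came from separate isolations. Primary heart cultures of newborn rats are enriched for cardiomyocytes but can keep other heart cells, and in such bulk RNA fewer cells of a type and less RNA per cell cannot be told apart.

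Libraries held 10325074 to 11921772 counts, of which 17.2% to 17.5% lay on unannotated rows, which are listed as new transcripts without a gene name. The methods of the paper do not describe how these rows were derived. The targeted gene showed no lower count in the libraries that carry the si-DYRK1A label. The Dyrk1a row itself held 0 to 3 counts per library, and the unannotated row that covers the gene on its strand held 74.5, 77.7 and 80.9 CPM in the si-NC libraries and 85.4, 80.1 and 81.7 CPM under the si-DYRK1A label, a log2 fold change of 0.08 (SE 0.058, edgeR adjusted p = 0.374). The authors assessed the knockdown as DYRK1A protein, by immunoblot 48 h after transfection, a measure that RNA counts do not replace. The libraries are named here by their label throughout. Of the cardiomyocyte markers, Actc1, Actn2, Nppa and Pln had between 3987 and 128198 counts per library. The rows of Tnni3, Myh6, Myh7 and Myl2 held 0 counts in every library, while an unannotated row with myosin domains that spans Myh6 and Myh7 held 1257 to 1616 counts.

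Interferons are secreted proteins that cells release after sensing viral or other foreign nucleic acid. They bind receptors on the cell surface, and JAK kinases then phosphorylate STAT factors, which enter the nucleus and bind the interferon-stimulated response element in the promoters of target genes. The products of these genes degrade or sequester foreign RNA, tag proteins with the ubiquitin-like modifier ISG15, or raise the level of the sensors and transcription factors of the pathway itself.

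Most of the interferon-stimulated genes that could be tested were higher in the libraries labelled si-DYRK1A. Of 26 genes tested, 21 were called higher with the quasi-likelihood test of edgeR at an adjusted p below 0.05, namely 17 of 20 effectors, 2 of 3 GTPases, the 1 sensor tested and 1 of 2 STAT or IRF factors. The number called lower was 0 in edgeR, DESeq2 and limma-voom, and 0 were lower at an unadjusted p below 0.05 in any of these. The test was fitted to all 15513 features with enough counts, of which 8.03% were called higher and 7.19% lower. The log2 fold change, si-DYRK1A over si-NC, was positive in all 26 genes, ranged from 0.08 to 1.84 and had a median of 0.77, which is 1.71-fold, against a median of 0.00 over all features tested. In 24 of the 26 genes every library labelled si-DYRK1A lay above every si-NC library in CPM, the counts scaled to library size by the TMM method, which was the case for 16.2% of all features tested. Of the 26 genes, 25 met the minimum level of the filter, 0.87 CPM, in all 3 si-NC libraries, and Mx2 met it through the other group. An exact two-sided permutation test of 3 libraries against 3 cannot give a p below 0.1, and the 24 genes without overlap reached that value.

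**Figure D1:**
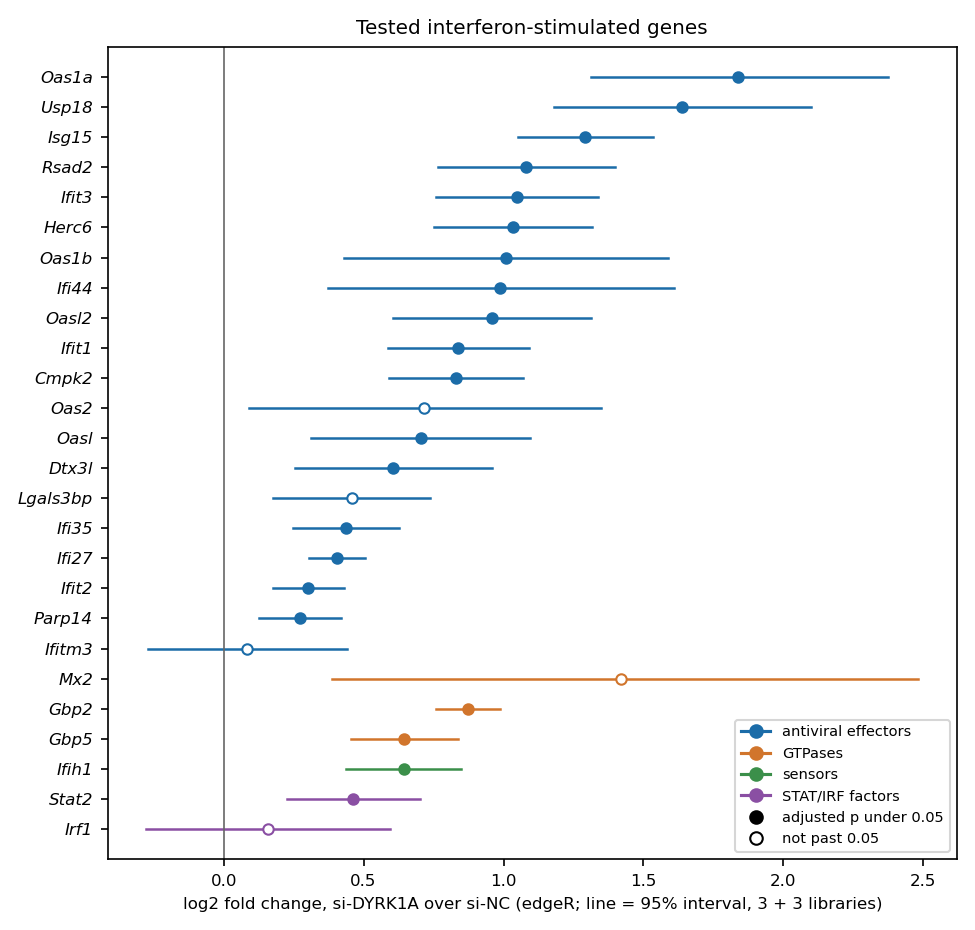
Log2 fold change of each of the 26 tested genes (points, x axis; si-DYRK1A over si-NC) with its 95% interval (lines), by class (colour), with filled points for an adjusted p below 0.05 in edgeR. All 26 points lie above 0, from 0.08 for Ifitm3 to 1.84 for Oas1a, and 5 are open.

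The promoters of these genes were searched for motifs of the response. The genes were chosen as known interferon targets, so an excess of matches over all windows can follow from that choice. It does not bear on the difference between groups. RefSeq promoter windows of the GRCr8 assembly, 250 bases before to 50 bases after the start, were matched to 31 of the 41 genes by symbol and to 1 by an older symbol. No window was matched for Oas2, Ifit1, Ifit2, Isg15, Usp18, Mx2, Ddx58, Dhx58 and Zbp1. The core of the interferon-stimulated response element, GAAANNGAA on either strand, was found in 22 of the 32 windows (68.8%) and in 9.71% of 33469 windows of the same length. It was found in 13 of the 17 windows of genes called higher, and 6 of these held more than one match. It was also found in 2 of the 3 windows of genes tested but not called and in 7 of the 12 windows of genes not tested. The STAT element TTCNNNGAA, which reads the same on both strands, was found in 8 of 32 windows (25.0%) and in 8.87% of all windows. The 160 bases before the start are shown for the 5 called genes with the largest log2 fold changes among those with a matched response element, on the strand of the gene from 5′ to 3′, with the matches in capitals.
Oas1a (chr12:41330306-41330465, strand +): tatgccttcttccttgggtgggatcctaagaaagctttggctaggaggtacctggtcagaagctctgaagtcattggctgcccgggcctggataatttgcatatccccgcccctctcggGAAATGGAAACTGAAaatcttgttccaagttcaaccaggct
Rsad2 (chr6:48788121-48788280, strand -): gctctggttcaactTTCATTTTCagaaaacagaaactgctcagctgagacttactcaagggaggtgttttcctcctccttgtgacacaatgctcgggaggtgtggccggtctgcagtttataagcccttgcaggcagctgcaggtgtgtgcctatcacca
Ifit3 (chr1:241527166-241527325, strand +): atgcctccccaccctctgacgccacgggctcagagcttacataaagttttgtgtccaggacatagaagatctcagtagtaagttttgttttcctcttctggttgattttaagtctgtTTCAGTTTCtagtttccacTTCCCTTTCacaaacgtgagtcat
Oas1b (chr12:41395853-41396012, strand -): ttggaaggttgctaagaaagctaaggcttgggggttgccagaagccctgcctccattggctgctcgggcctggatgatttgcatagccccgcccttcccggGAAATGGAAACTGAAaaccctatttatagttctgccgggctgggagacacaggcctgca
Ifi44 (chr2:243303841-243304000, strand -): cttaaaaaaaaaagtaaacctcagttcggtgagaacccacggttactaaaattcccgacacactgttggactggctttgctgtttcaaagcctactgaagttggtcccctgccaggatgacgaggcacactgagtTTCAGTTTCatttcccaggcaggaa
In Oas1a and Oas1b a pair of overlapping matches formed the same run of 15 bases, GAAATGGAAACTGAA, beginning 41 bases before the start of Oas1a and 59 bases before that of Oas1b. In Rsad2, Ifit3 and Ifi44 the matches lay on the opposite strand and therefore read TTCATTTTC, TTCAGTTTC or TTCCCTTTC. The Ifi44 window held a further match after the start, which is not shown. Of the 4 called genes whose window held no match to these letters, Oasl, Herc6, Ifi35 and Stat2, the log2 fold changes were 0.70, 1.03, 0.44 and 0.46. A match is a description of these letters in this window and not evidence of binding.

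Oligoadenylate synthetases bind double-stranded RNA and make the oligoadenylates that activate RNase L, and 4 of the 5 tested members of the family were higher, with a median log2 fold change of 0.96. Oas1a had the largest log2 fold change of the 26 genes and 2.01, 1.95 and 1.42 CPM in the si-NC libraries and 8.44, 6.03 and 4.76 CPM under the si-DYRK1A label. All libraries labelled si-DYRK1A lay more than 2 CPM above the highest si-NC library, and the log2 fold change was 1.84 (SE 0.26, edgeR adjusted p = 2.73e-05), which is 3.57-fold. Oas1b, a paralog on the other strand of the same cluster, had 14.3, 22.2 and 12.8 CPM under si-NC and 36.2, 34.7 and 28.4 CPM under the si-DYRK1A label. The si-NC libraries of Oas1b were uneven, and its log2 fold change of 1.01 (SE 0.23, edgeR adjusted p = 0.0412) lost its call when any library other than si-NC 2 was left out, with adjusted p between 0.0583 and 0.128. Oas2 had 16 to 31 counts per library and a log2 fold change of 0.71 (SE 0.30, edgeR adjusted p = 0.121), and Oas3 had 0 to 9 counts and was not tested. These 4 genes lie within 1 cluster at chr12:41200718-41363161 of Rnor_6.0.

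The oligoadenylate synthetase-like genes lie in a second cluster on the same chromosome, at chr12:47444104-47482961. Oasl2 had 9.11, 11.2 and 8.03 CPM under si-NC and 21.99, 19.02 and 14.02 CPM under the si-DYRK1A label. Its groups did not overlap, and the log2 fold change was 0.96 (SE 0.17, edgeR adjusted p = 9.97e-04). Oasl had 9.20, 9.05 and 5.85 CPM under si-NC and 14.95, 14.1 and 10.1 CPM under the si-DYRK1A label, a log2 fold change of 0.70 (SE 0.18, edgeR adjusted p = 0.0158). The lowest Oasl library labelled si-DYRK1A was within 1 CPM of the highest si-NC library, and the call was lost without si-NC 3 (adjusted p = 0.0506), si-DYRK1A 1 (adjusted p = 0.0824) or si-DYRK1A 2 (adjusted p = 0.0853). Reads of Oas1a, Oas1b and the neighbouring Oas1g, and of Oasl and Oasl2, can match more than one of these paralogs, and how such reads were counted is not given in the sources used here.

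IFIT proteins bind the ends of foreign RNA and keep it from being translated. All 3 rat genes tested, neighbours at chr1:252894663-252946170, were higher, with log2 fold changes from 0.30 to 1.05. Ifit3 had 7.38, 8.03 and 6.35 CPM under si-NC and 15.7, 15.7 and 13.6 CPM under the si-DYRK1A label, a log2 fold change of 1.05 (SE 0.14, edgeR adjusted p = 1.60e-05). Ifit1 had 11.99, 14.5 and 11.1 CPM under si-NC and 24.5, 23.4 and 19.5 CPM under the si-DYRK1A label, a log2 fold change of 0.84 (SE 0.12, edgeR adjusted p = 4.66e-05). Ifit2 changed least and had 58.1, 60.1 and 57.02 CPM under si-NC and 71.3, 72.1 and 72.8 CPM under the si-DYRK1A label, a log2 fold change of 0.30 (SE 0.06, edgeR adjusted p = 0.0013). The 95% interval of Ifit2, 0.18 to 0.43, did not reach that of Ifit1, 0.59 to 1.09, or of Ifit3, 0.76 to 1.34. The difference between the genes itself was not tested. Ifit2 nevertheless had the highest level per length of the 3, at 17.03 ± 0.494 FPKM (SD, n = 3) under si-NC and 20.9 ± 0.209 FPKM (SD, n = 3) under the si-DYRK1A label.

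Genes for conjugation of ISG15 and for ubiquitin ligases of the response had a median log2 fold change of 1.16, and all 4 tested members were higher. Isg15, the ubiquitin-like modifier itself, had 23.5, 23.9 and 18.1 CPM under si-NC and 55.1, 59.04 and 46.4 CPM under the si-DYRK1A label. That is a log2 fold change of 1.29 (SE 0.11, edgeR adjusted p = 2.59e-06), or 2.45-fold. Usp18, which removes ISG15 from proteins and restrains signalling at the type I interferon receptor, had 2.97, 3.81 and 2.42 CPM under si-NC and 11.7, 10.1 and 6.92 CPM under the si-DYRK1A label. Its lowest library labelled si-DYRK1A was well above its highest si-NC library, and the log2 fold change was 1.64 (SE 0.22, edgeR adjusted p = 2.59e-05). Herc6, the main ISG15 ligase of rodents, had 16.7, 20.6 and 14.05 CPM under si-NC and 39.8, 34.2 and 31.2 CPM under the si-DYRK1A label, a log2 fold change of 1.03 (SE 0.13, edgeR adjusted p = 1.05e-04). Dtx3l, a ubiquitin ligase that pairs with PARP9, had 22.5, 34.00 and 24.7 CPM under si-NC and 46.1, 38.6 and 39.1 CPM under the si-DYRK1A label. Its si-NC 2 value was well above the other si-NC values, and the log2 fold change was 0.61 (SE 0.15, edgeR adjusted p = 0.0317). The Dtx3l call was lost without si-NC 3 (adjusted p = 0.158), si-DYRK1A 1 (adjusted p = 0.0900), si-DYRK1A 2 (adjusted p = 0.0784) or si-DYRK1A 3 (adjusted p = 0.0980).

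The enzymes that act before Herc6 in the same conjugation chain are not among the 41 genes but were counted with the rest of the pathway. Uba7, which activates ISG15, had 16.3, 14.9 and 11.96 CPM under si-NC and 27.3, 31.2 and 25.1 CPM under the si-DYRK1A label, a log2 fold change of 0.96 (SE 0.12, edgeR adjusted p = 7.69e-06). Ube2l6, which carries it to the ligase, had 46.8, 51.5 and 48.4 CPM under si-NC and 65.4, 59.5 and 56.4 CPM under the si-DYRK1A label, a smaller log2 fold change of 0.31 (SE 0.072, edgeR adjusted p = 0.00527). Groups did not overlap for either gene, and 16.2% of all features tested lay above in the same way. Both genes are from a list of 50, of which 25 were tested and 9 called higher, against 8.03% of all features tested. The Ube2l6 call was lost in the alternatives on FPKM, with adjusted p between 0.0527 and 0.0994. In edgeR the modifier, its activating and carrier enzymes, its ligase and its deconjugating enzyme were each called higher.

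Among the other effectors, 5 of 7 tested genes were higher, with a median log2 fold change of 0.46. Rsad2 encodes viperin, which makes a nucleotide that stops viral polymerases, and had 14.96, 16.1 and 9.87 CPM under si-NC and 30.6, 28.6 and 27.1 CPM under the si-DYRK1A label. Its log2 fold change was 1.08 (SE 0.15, edgeR adjusted p = 2.32e-04). Cmpk2, a nucleotide kinase of mitochondria and the neighbour of Rsad2 at chr6:45655954-45694822, had 14.1, 15.2 and 11.9 CPM under si-NC and 22.6, 27.5 and 23.1 CPM under the si-DYRK1A label. The Cmpk2 log2 fold change was 0.83 (SE 0.11, edgeR adjusted p = 2.66e-05), and neither gene of this pair overlapped between groups. Ifi44, a protein known from its induction by interferon, had few counts, 15, 28 and 15 under si-NC and 47, 30 and 36 under the si-DYRK1A label. The log2 fold change of Ifi44 was 0.99 (SE 0.30, edgeR adjusted p = 0.026), and the call was lost in DESeq2 (adjusted p = 0.0937) and without si-NC 1, si-NC 3, si-DYRK1A 1 or si-DYRK1A 3, with adjusted p between 0.0534 and 0.137.

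Ifi27, a small membrane protein, had by far the highest level of the tested genes, 544 ± 37.8 FPKM (SD, n = 3) under si-NC and 718 ± 22.4 FPKM (SD, n = 3) under the si-DYRK1A label. In counts it had 446, 461 and 403 CPM under si-NC and 582, 594 and 559.5 CPM under the si-DYRK1A label. The change was modest but the libraries were tight, with a log2 fold change of 0.41 (SE 0.048, edgeR adjusted p = 4.41e-06). Ifi35, which binds the related protein NMI, had 22.1, 25.4 and 21.99 CPM under si-NC and 31.8, 32.8 and 29.5 CPM under the si-DYRK1A label, a log2 fold change of 0.44 (SE 0.091, edgeR adjusted p = 0.00185). Lgals3bp, a secreted glycoprotein that binds galectins, was next after Ifi27 in FPKM, though above it in CPM, and had 515, 522 and 407 CPM under si-NC and 691, 665 and 627 CPM under the si-DYRK1A label. Its groups did not overlap, but si-NC 3 stood below the other si-NC libraries, and the log2 fold change of 0.46 (SE 0.11, edgeR adjusted p = 0.0538) did not pass the threshold. It passed in 6 of 19 alternatives, among them DESeq2 (adjusted p = 0.00232) and the fits without si-NC 3 (adjusted p = 2.91e-05) or si-NC 1 (adjusted p = 0.0487). Ifitm3, which blocks viral entry at endosomal membranes, had 8.73, 6.51 and 9.53 CPM under si-NC and 9.67, 9.13 and 7.44 CPM under the si-DYRK1A label. These groups overlapped, and the log2 fold change of 0.08 (SE 0.17, edgeR adjusted p = 0.807) had a 95% interval of -0.27 to 0.44.

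Parp14, an enzyme that attaches ADP-ribose to proteins, had 95.7, 101 and 87.7 CPM under si-NC and 124, 116 and 103 CPM under the si-DYRK1A label. The groups were close without overlap, and the log2 fold change of 0.27 (SE 0.069, edgeR adjusted p = 0.0126) was the smallest called. The call was lost without si-NC 3 (adjusted p = 0.0575), si-DYRK1A 1 (adjusted p = 0.0636) or si-DYRK1A 2 (adjusted p = 0.0660).

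**Figure D2:**
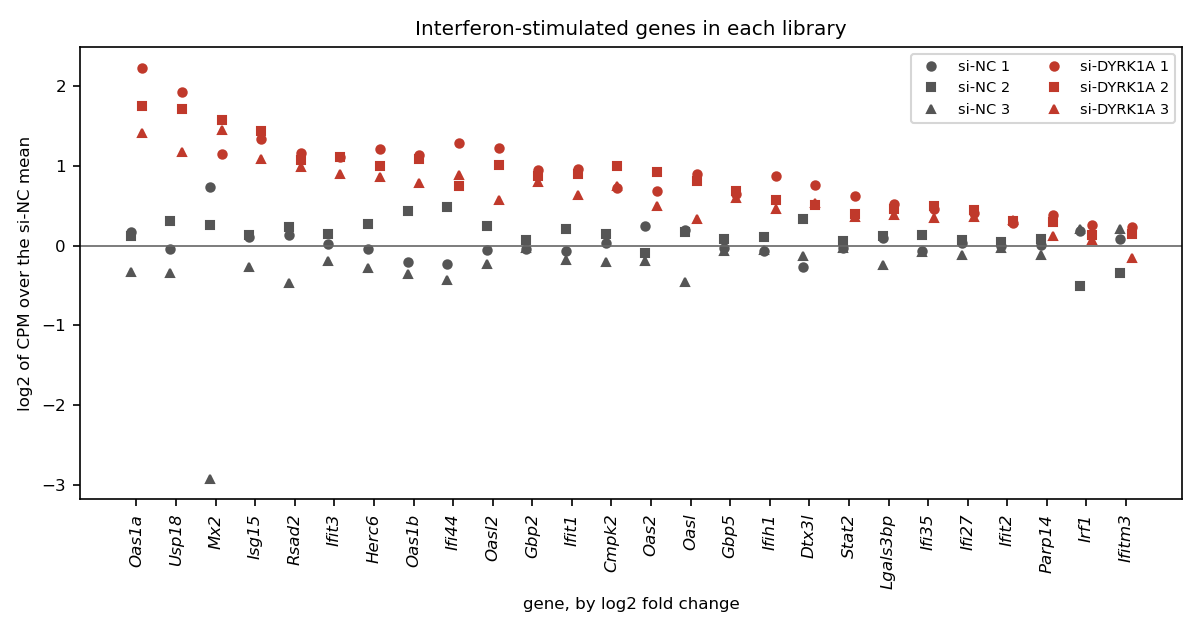
CPM of each tested gene in each library, as log2 over the si-NC mean of that gene (y axis), with genes ordered by log2 fold change (x axis), si-NC libraries in grey and libraries labelled si-DYRK1A in red. In all genes but Irf1 and Ifitm3 the red points lie above the grey ones, and si-NC 3 lies far below the rest for Mx2, at 1 count.

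GTPases of the response act on viral capsids and on membranes around intracellular pathogens. Gbp2 had the smallest adjusted p of the 26 genes. It had 73.3, 78.8 and 73.4 CPM under si-NC and 145, 138 and 131 CPM under the si-DYRK1A label, a log2 fold change of 0.87 (SE 0.055, edgeR adjusted p = 5.90e-10). Gbp5 lies in the same cluster at chr2:248178389-248293784 and had 18.03, 19.6 and 17.6 CPM under si-NC and 28.9, 29.7 and 27.95 CPM under the si-DYRK1A label, a log2 fold change of 0.65 (SE 0.092, edgeR adjusted p = 3.63e-05). Both genes kept the 3 libraries of each group within a narrow range, and neither overlapped. Gbp4, which lies between them, held 0 counts in every library, as did the unannotated row that covers it. Mx2 had counts of 11, 9 and 1 under si-NC and 16, 20 and 20 under the si-DYRK1A label. These groups did not overlap, but with 1 count in si-NC 3 the log2 fold change of 1.42 (SE 0.50, edgeR adjusted p = 0.06) did not pass, and without si-NC 1 it was 1.96 (adjusted p = 0.0380). Mx1 held at most 1 count in a library and was not tested.

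Of the 4 sensors, 1 could be tested on its own row. Ifih1, which recognises long double-stranded RNA, had 41.5, 46.9 and 41.9 CPM under si-NC and 79.3, 64.4 and 59.9 CPM under the si-DYRK1A label. Its lowest library labelled si-DYRK1A lay more than 10 CPM above the highest si-NC library, and the log2 fold change was 0.64 (SE 0.10, edgeR adjusted p = 3.68e-04). Zbp1, which binds nucleic acid in the Z form, had counts of 1, 3 and 0 under si-NC and 7, 9 and 6 under the si-DYRK1A label, too few for the filter, although the groups did not overlap. Ddx58, which encodes RIG-I, and Dhx58, a related helicase that regulates it, held 0 counts on their own rows. The unannotated row over Dhx58 carries helicase domains and a domain of the family named after the C-terminal domain of RIG-I. This row also covers Kat2a and had counts of 6, 8 and 6 under si-NC and 6, 6 and 13 under the si-DYRK1A label. These counts overlap between groups and were too few to test.

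STAT and IRF factors carry the signal to the promoters, and 1 of the 2 that could be tested was higher. Stat2 had 12.5, 13.3 and 12.5 CPM under si-NC and 19.7, 16.8 and 16.4 CPM under the si-DYRK1A label, a log2 fold change of 0.46 (SE 0.11, edgeR adjusted p = 0.00731). Without si-DYRK1A 1, its highest library, Stat2 had a log2 fold change of 0.38 (adjusted p = 0.0628). Irf1 had 5.47, 3.38 and 5.52 CPM under si-NC and 5.72, 5.27 and 5.02 CPM under the si-DYRK1A label. The 2 groups of Irf1 overlapped, and the log2 fold change of 0.16 (SE 0.21, edgeR adjusted p = 0.684) had a 95% interval of -0.28 to 0.60. Irf7 held at most 1 count in a library and Irf9 held 0 counts. By class, the median log2 fold change was 0.83 for 20 tested effectors, 0.87 for 3 GTPases, 0.64 for the 1 sensor and 0.31 for the 2 factors. The classes other than effectors hold few tested genes, and the difference between classes was not tested.

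Levels per length spanned a wide range among the genes tested. In the si-NC libraries FPKM, the deposited level per length of transcript, ranged from 0.215 for Mx2 to 544 for Ifi27. Isg15, with 16.5 ± 2.44 FPKM (SD, n = 3) under si-NC and 40.3 ± 4.91 FPKM (SD, n = 3) under the si-DYRK1A label, moved from the sixth place among the tested genes to the fourth. Oas1a remained low in both groups, with 0.877 ± 0.158 FPKM (SD, n = 3) under si-NC and 3.12 ± 0.912 FPKM (SD, n = 3) under the si-DYRK1A label. Gbp2, with 30.1 ± 1.35 FPKM (SD, n = 3) under si-NC and 54.99 ± 2.87 FPKM (SD, n = 3) under the si-DYRK1A label, stayed in the third place.

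**Figure D3:**
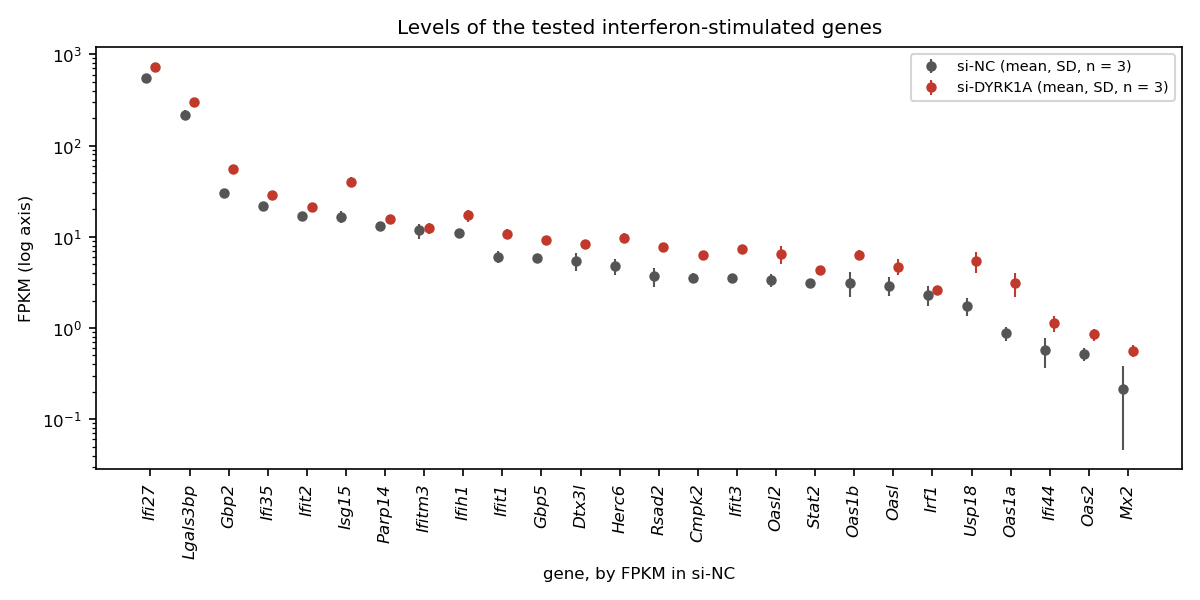
FPKM of the 26 tested genes (y axis, log scale; points are means and lines the SD of 3 libraries), ordered by the si-NC level (x axis), for si-NC in grey and the si-DYRK1A label in red. Ifi27 and Lgals3bp lie well above the other 24 genes in both groups.

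Most of the genes shared an order of libraries within a group. Among si-NC libraries, si-NC 2 held the highest CPM in 20 of the 26 genes and si-NC 3 the lowest in 20, against 34.0% and 33.8% of all features tested. Among those labelled si-DYRK1A, si-DYRK1A 1 was highest in 18 and si-DYRK1A 3 lowest in 21, against 35.9% and 32.3% of all features. The median over genes of log2 CPM over the si-NC mean was 0.00, 0.14 and -0.17 in si-NC 1, 2 and 3. It was 0.87, 0.78 and 0.57 in si-DYRK1A 1, 2 and 3, so that the lowest of the second group stood above the highest of the first. The genes of a library share its RNA, and this order is a description. With si-DYRK1A 1 left out 15 genes were called, and with si-NC 3 or si-DYRK1A 2 left out 17.

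Several members without counts had their reads on unannotated rows. Such a row covered at least 50% of 17 members on the same strand, and 11 of these members could not be tested on their own rows. The row over Trim25, a ubiquitin ligase that activates RIG-I, encodes a RING domain, also covers the annotated locus AC119015.2, and had 103, 106 and 101 CPM under si-NC and 127, 122 and 115 CPM under the si-DYRK1A label. Its log2 fold change was small but past the threshold, at 0.23 (SE 0.052, edgeR adjusted p = 0.00401). The row over Parp9, the partner of Dtx3l in the neighbouring locus, encodes macro and ADP-ribosyltransferase domains and had 3.07, 3.13 and 3.68 CPM under si-NC and 5.89, 4.80 and 4.93 CPM under the si-DYRK1A label. The log2 fold change of this row was 0.66 (SE 0.21, edgeR adjusted p = 0.0347), and it lost its call in DESeq2 (adjusted p = 0.140) and without any library other than si-NC 3, with adjusted p between 0.0668 and 0.148. A row over Ifi44 with a TLD domain had 6.42, 5.92 and 4.85 CPM under si-NC and 9.50, 11.02 and 9.09 CPM under the si-DYRK1A label, a log2 fold change of 0.78 (SE 0.17, edgeR adjusted p = 0.00228). Summed with the annotated row, Ifi44 gave 0.83 (SE 0.15, edgeR adjusted p = 3.89e-04).

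The row over Ddx58 encodes the caspase recruitment and helicase domains of RIG-I, also covers Topors, and had counts of 16, 11 and 13 under si-NC and 20, 20 and 37 under the si-DYRK1A label. These counts did not overlap between groups, but the log2 fold change of 0.96 (SE 0.36, edgeR adjusted p = 0.0749) did not pass. The row over Ifi44l had counts of 7, 17 and 10 under si-NC and 29, 23 and 17 under the si-DYRK1A label, and its log2 fold change of 1.05 (SE 0.38, edgeR adjusted p = 0.0655) did not pass either. A further row over Stat2 had a log2 fold change of 0.33 (SE 0.17, edgeR adjusted p = 0.217), and the sum of both Stat2 rows gave 0.42 (SE 0.10, edgeR adjusted p = 0.00582). The row over Irf9 had a log2 fold change of 0.43 (SE 0.12, edgeR adjusted p = 0.0225), but its domains are those of the neighbouring ubiquitin ligase gene Rnf31, which it also covers, so it gives no value for Irf9. The call of that row was lost in DESeq2 (adjusted p = 0.0613) and without any library other than si-NC 2, with adjusted p between 0.0538 and 0.127. A row over Irf7 covers 16 other genes and encodes a domain of RNA polymerase, and the row that encodes the IRF domains held 0 to 3 counts. Rows over Mx1, Bst2, Eif2ak2 and Gbp4 held at most 2 counts in a library.

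The interferon genes themselves were near 0 in both groups. Of 12 ligand genes looked for, 10 had a row, 6 of these held 0 counts in every library, and the others, Ifnb1, Ifna2, Ifne and Ifnk, held 0 to 3. At this depth a difference in ligand transcripts was not detectable. Of 6 receptor genes, 3 were tested on their own rows and 2 on unannotated rows, and 0 were called higher, while Il10rb held 0 counts on its own row and on the unannotated row that covers it. Ifngr2, a chain of the gamma receptor, had 112, 104 and 113 CPM under si-NC and 89.5, 101 and 94.8 CPM under the si-DYRK1A label, a log2 fold change of -0.20 (SE 0.057, edgeR adjusted p = 0.018). The Ifngr2 call was lost without si-NC 1, si-NC 3, si-DYRK1A 1 or si-DYRK1A 3, with adjusted p between 0.0534 and 0.108. Ifnlr1, of the lambda receptor, had 31.8, 33.6 and 28.8 CPM under si-NC and 25.1, 25.3 and 23.3 CPM under the si-DYRK1A label, a log2 fold change of -0.36 (SE 0.089, edgeR adjusted p = 0.00815). Ifngr1 had a log2 fold change of -0.06 (SE 0.05, edgeR adjusted p = 0.453). The chains of the type I receptor lay on unannotated rows with receptor domains. Their log2 fold changes were -0.14 (SE 0.093, edgeR adjusted p = 0.352) for Ifnar1 and -0.27 (SE 0.11, edgeR adjusted p = 0.11) for Ifnar2.

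Between receptor and promoter, 4 signalling rows outside the 41 genes were tested and are described here. Of these, 0 passed in edgeR, DESeq2 or limma-voom, with 1, Irf5, at an unadjusted p below 0.05 in edgeR. Stat2, which is among the 41 genes, was called higher, with a log2 fold change of 0.46 (edgeR adjusted p = 0.00731). A further gene of the signalling list is not reported here. The row over Jak1 gave -0.11 (SE 0.07, edgeR adjusted p = 0.357) and that over Jak2 0.24 (SE 0.20, edgeR adjusted p = 0.481). Irf5 gave -0.20 (SE 0.086, edgeR adjusted p = 0.131) and the row over Irf3 -0.04 (SE 0.10, edgeR adjusted p = 0.825). Tyk2, Stat3, Irf2 and Irf8 could not be tested, with 0 to 6 counts on their own rows and 0 to 11 on the unannotated rows that cover them. Of 7 negative regulators, 2 were tested on their own rows and 4 on unannotated rows, and Ptpn11 held 0 counts. Of those tested, 2 were lower, against 7.19% of all features tested. Ptpn6, a phosphatase that dampens JAK signalling, had 28.1, 27.2 and 28.1 CPM under si-NC and 18.8, 23.7 and 21.5 CPM under the si-DYRK1A label, a log2 fold change of -0.38 (SE 0.10, edgeR adjusted p = 0.00877), or -0.30 (adjusted p = 0.0679) without si-DYRK1A 1. The row over Socs3, with the SH2 domain of this suppressor of cytokine signalling, had 90.5, 86.00 and 77.3 CPM under si-NC and 41.95, 49.8 and 50.97 CPM under the si-DYRK1A label. It changed more than any other tested row of these 7 regulators, with a log2 fold change of -0.83 (SE 0.077, edgeR adjusted p = 3.79e-07) and no overlap between groups. The rows over Ptpn1 and Ptpn2, phosphatases of JAK and STAT proteins, gave -0.63 (SE 0.24, edgeR adjusted p = 0.0802) and -0.55 (SE 0.41, edgeR adjusted p = 0.411). Socs1 gave 0.01 (SE 0.19, edgeR adjusted p = 0.986) and the row over Pias1 -0.03 (SE 0.079, edgeR adjusted p = 0.852), and these 4 did not pass.

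Interferon-stimulated genes outside the 41 had mixed values. Of 50 such genes looked for, 25 were tested on their own rows, of which 9 were higher and 1 lower, with a median log2 fold change of 0.14. Over all features tested, 8.03% were called higher and 7.19% lower. Oas1g, of the Oas1 cluster, had 0.863, 2.37 and 1.00 CPM under si-NC and 6.51, 6.78 and 3.29 CPM under the si-DYRK1A label, a log2 fold change of 1.94 (SE 0.39, edgeR adjusted p = 0.00537), close to that of its paralog Oas1a. Phf11b gave 1.10 (SE 0.21, edgeR adjusted p = 7.52e-04), Apol9a 0.80 (SE 0.12, edgeR adjusted p = 0.00143) and the immunity-related GTPase Ifi47 0.72 (SE 0.13, edgeR adjusted p = 7.04e-04). Parp12 gave 0.52 (SE 0.087, edgeR adjusted p = 6.12e-04), Znfx1 0.42 (SE 0.10, edgeR adjusted p = 0.0208) and Igtp 0.37 (SE 0.11, edgeR adjusted p = 0.0338). The calls of Igtp (without si-NC 2, si-NC 3, si-DYRK1A 1 or si-DYRK1A 2) and Znfx1 (without si-NC 1 or any library labelled si-DYRK1A) were lost, with adjusted p between 0.0537 and 0.198, and that of Igtp also in DESeq2 (adjusted p = 0.0845). Slfn5 went the other way, with a log2 fold change of -0.36 (SE 0.057, edgeR adjusted p = 1.20e-04). On unannotated rows that cover a single gene, 6 of 11 tested were higher in edgeR and 0 lower, with 1 lower at an unadjusted p below 0.05 and 0 lower in DESeq2 or limma-voom. These 6 lie over Helz2 (0.88), Gbp1 (0.77), Rnf213 (0.72), Trim34 (0.66), Adar (0.38) and Pml (0.32), with log2 fold changes in brackets. The rows over Gbp1 and Rnf213 lost their calls without si-NC 1, si-NC 3, si-DYRK1A 1 or si-DYRK1A 2, and that over Trim34 without si-NC 2, si-NC 3, si-DYRK1A 1 or si-DYRK1A 2, with adjusted p between 0.0531 and 0.170. In DESeq2 the row over Trim34 had an adjusted p of 0.0848, and in limma-voom those over Gbp1 and Rnf213 had 0.061 and 0.0505. An unannotated row over Igtp encodes an interferon-inducible GTPase domain and also covers SNORA5. Its log2 fold change was 0.62 (SE 0.077, edgeR adjusted p = 2.37e-05), larger than that of the Igtp row itself. Rows over Apol9a, Parp10 and Ifit1bl also cover other genes, carry the domains of those genes and were not called.

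**Figure D4:**
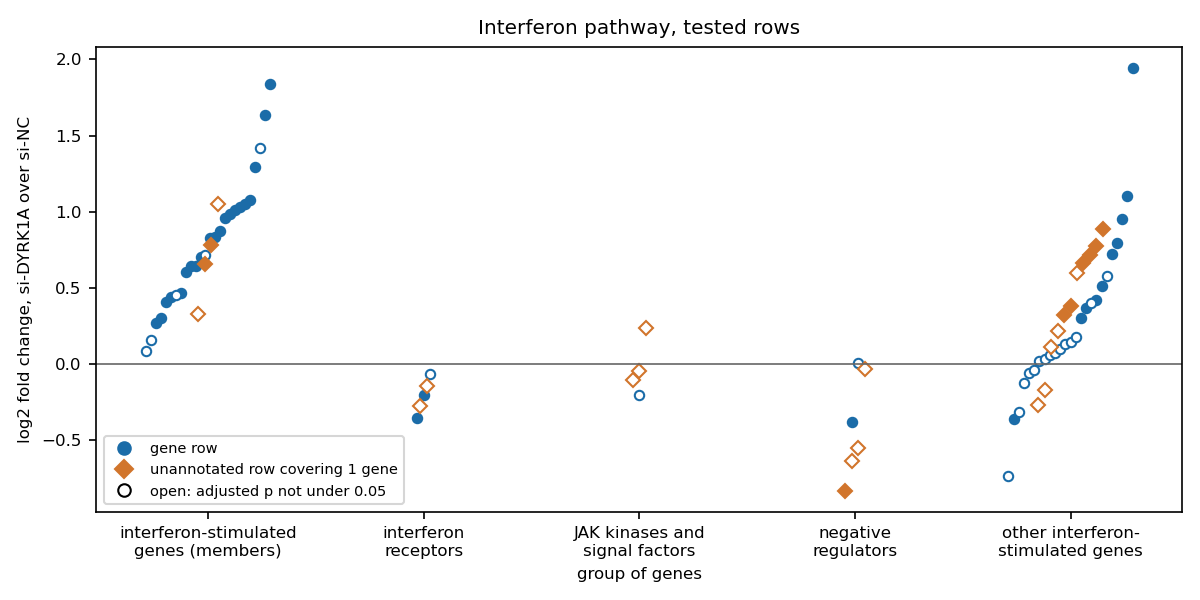
Log2 fold change (y axis) of tested rows of the 41 genes, of receptors, of JAK kinases and signal factors, of negative regulators and of other interferon-stimulated genes (x axis). Circles are gene rows, diamonds are unannotated rows that cover 1 gene, and filled symbols have an adjusted p below 0.05. Of the rows shown in the lists of receptors, signal factors and regulators, none was called higher, and the 2 receptors and 2 regulators called were lower. Stat2 and Usp18, both called higher, are shown with the 41 genes. A further gene of the signalling list is not reported here.

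Markers of heart cell types were read in the same fit, in which 8.03% of all features tested were called higher and 7.19% lower. Of 12 tested macrophage markers, 2 were higher, Cd163 with a log2 fold change of 0.87 (SE 0.20, edgeR adjusted p = 0.00415) and Lyz2 with 0.41 (SE 0.064, edgeR adjusted p = 1.78e-04), and the other 10 gave no call. Without si-DYRK1A 2 the Cd163 call was lost (adjusted p = 0.0624). Their summed level was 349 to 368 CPM under si-NC and 354 to 398 CPM under the si-DYRK1A label, ranges that overlap, and the median log2 fold change was -0.08. Csf1r and Ptprc, which define macrophages and leukocytes, gave -0.13 (SE 0.064, edgeR adjusted p = 0.2) and -0.21 (SE 0.09, edgeR adjusted p = 0.124). Cd68 held 0 counts in every library. Of 7 tested endothelial markers, 3 were lower, Tek (-0.75), Tie1 (-0.43) and Cdh5 (-0.31, lost without si-NC 1, si-DYRK1A 1 or si-DYRK1A 3 at adjusted p of 0.0531 to 0.0668), and the summed level of the list was 187 to 207 CPM under si-NC and 158 to 166 CPM under the si-DYRK1A label. Lymphocyte markers were near 0, with sums of 0.863 to 1.67 CPM under si-NC and 0.260 to 0.659 CPM under the si-DYRK1A label.

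Fibroblast markers were abundant, with sums of 21531 to 26245 CPM under si-NC and 20368 to 21107 CPM under the si-DYRK1A label, and 2 of 6 tested were higher, Postn and Lum. Of 2 tested unannotated rows over fibroblast markers, that over Dcn was higher, with a log2 fold change of 1.00 (SE 0.31, edgeR adjusted p = 0.0311), and its call was lost in DESeq2 (adjusted p = 0.0938) and without si-NC 1, si-NC 2, si-DYRK1A 2 or si-DYRK1A 3, with adjusted p between 0.0528 and 0.141. Col1a1 held most of the sum and did not pass in edgeR with all libraries, but it was called lower without si-NC 2 (adjusted p = 7.22e-05) or si-NC 3 (adjusted p = 0.00177) and in DESeq2 (adjusted p = 0.0122). Of 2 smooth muscle markers tested, Tagln and Cnn1, neither passed, and the sum was 556 to 563 CPM under si-NC and 545 to 569 CPM under the si-DYRK1A label. Of 5 tested cardiomyocyte markers, 4 were higher, and the sum of the list was 18963 to 19667 CPM under si-NC and 22221 to 23175 CPM under the si-DYRK1A label. The Actc1 call was lost without si-NC 1, si-DYRK1A 2 or si-DYRK1A 3 (adjusted p up to 0.168) and the Pln call in DESeq2 and without any library other than si-NC 3 (adjusted p up to 0.217), while Nppa and Actn2 passed whichever library was left out. These values moved with the groups to different degrees, and their part in the values of the interferon-stimulated genes was not tested.

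**Figure D5:**
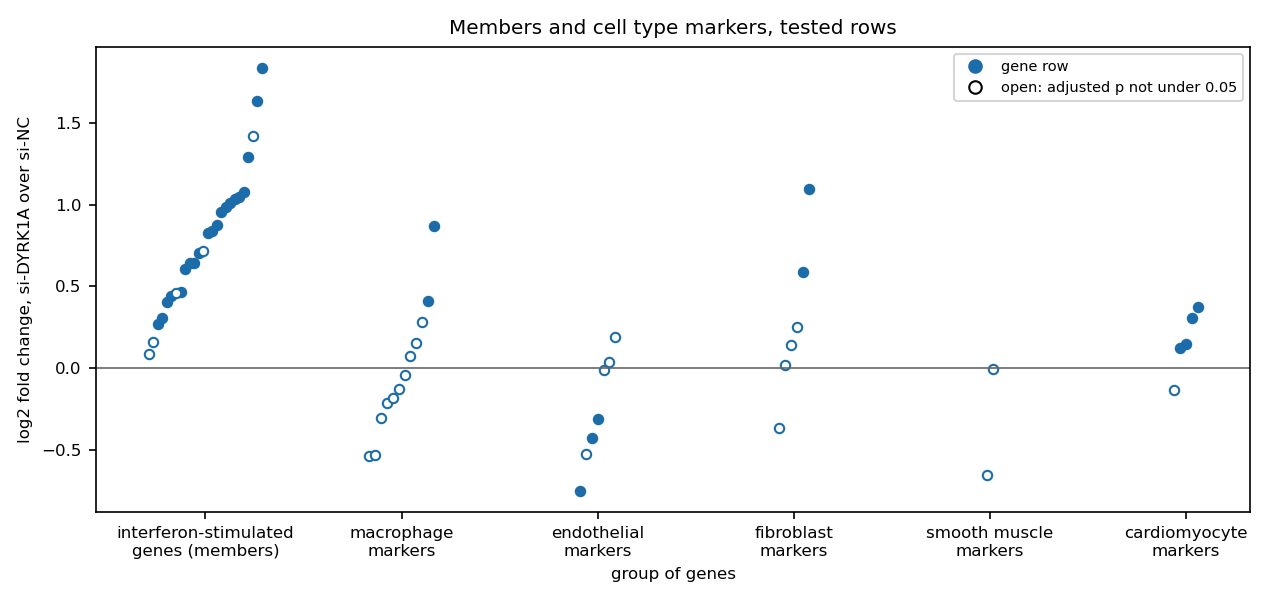
Log2 fold change (y axis) of the tested rows of the 41 genes and of marker lists for 5 cell types (x axis), with filled points for an adjusted p below 0.05. The interferon-stimulated genes have a median of 0.77, while the medians are -0.08 for macrophage, -0.31 for endothelial, 0.20 for fibroblast, -0.33 for smooth muscle and 0.15 for cardiomyocyte markers.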

How the data were processed

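RNA was from 6 libraries of cultured rat cardiomyocytes, grouped by their sample labels. Reads had been mapped with HISAT2 to the rat assembly Rnor_6.0 by the authors, who deposited raw counts per gene and FPKM, normalized for transcript length and library. The submitters' processing notes name Bowtie 0.12.2 and a mouse build instead, and the labels name another library kit than the methods. How reads were counted, on which annotation and whether by strand, is not given in the sources used here. Counts were tested with edgeR 4.0.16 in R 4.3.3 (TMM, robust quasi-likelihood fit, filterByExpr with a minimum count of 10 in 3 libraries and a total of 15) on all features, two-sided, with Benjamini-Hochberg adjustment at 0.05. FPKM was used for levels and in limma 3.58.1 as an alternative. DESeq2 1.42.0 and limma-voom were further alternatives. Scripts were tested on simulated data. Members, marker and pathway lists, motifs and the rule for printed promoters were chosen with earlier results of these data known. All members are named, with values per library for those called and for tested sensors and factors. Unannotated rows were assigned to a gene by an overlap of at least 50% of its span on the same strand. One further gene of the signalling list is not reported here.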

Additional observations from a re-analysis of the deposited data

How the results depend on the processing

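Over 19 alternatives, 438 of 489 gene values kept their direction and their side of the threshold, 40 lost a call, 9 gained one and 2 turned in sign. Those 2, both uncalled, were Ifitm3 and Irf1 without si-NC 2, and with 1 library left out their values ran from -0.066 to 0.20 and from -0.044 to 0.27. Of the 21 calls, 12 held in every alternative run (Oas1a, Ifit1, Ifit2, Ifit3, Isg15, Usp18, Herc6, Ifi27, Rsad2, Cmpk2, Gbp2 and Gbp5), and Oasl2, Ifi35 and Ifih1 were lost only with log2(FPKM + 1) without a filter. Members called higher numbered 21 to 23 under DESeq2, limma-voom, other scalings, other count filters, annotated genes only and sums with covering rows, 15 to 21 with 1 library left out, 16 with log2(FPKM + 1) or log2(FPKM + 0.1), and 12 with log2(FPKM + 1) without a filter. No member was called lower in any of them. The median log2 fold change was 0.67 to 0.86 with 1 library left out. It was 0.57 over 25 members with log2(FPKM + 1) and 0.44 over 33 members without its filter, against 26 members in the main fit. The pseudocount shrinks low genes by construction, and the sets of members also differ. What each of these adds to the lower medians was not tested. All features called numbered 1199 with log2(FPKM + 1), 1180 with log2(FPKM + 0.1), 591 without a filter, and 1614 to 2210 with 1 library left out, against 2360. For the other pathway genes and the covering rows the alternatives were chosen after seeing the data. Of 31 pathway rows, 13 were called, against 9 to 13 with 1 library left out, 6 with log2(FPKM + 1) or log2(FPKM + 0.1) and 3 without a filter. Of 8 covering rows, 4 were called, against 2 in DESeq2, 2 to 4 with 1 library left out, 1 with log2(FPKM + 1) or log2(FPKM + 0.1) and 0 without a filter. The cause of these losses was not tested. Over all features tested, the deviations of same-numbered libraries had correlations of 0.06, -0.02 and -0.01. With 3 libraries per group these values cannot settle whether the numbers pair the samples. A replicate block gave 22 members and 2269 features called. Lgals3bp (adjusted p = 8.59e-07) and Col1a1 (adjusted p = 0.00353) gained a call under it. The 13 untested members held 0 to 9 counts on their own rows, and for some of these, such as Trim25 and Parp9, an unannotated row over the gene held more.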
